A study of Mus musculus with 8 samples.

Results

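The genes described here are 38 components of the machinery by which a nerve terminal stores, docks and releases synaptic vesicles: synapsins, vesicle membrane proteins, synaptotagmins, complexins and Doc2 proteins, SNAREs with the proteins that take them apart, Rab3 proteins with rabphilin, and active zone scaffolds. They were taken by gene symbol from a list whose rule uses no measured value, though it was drawn up with earlier results of these data known, and all 38 were found among the 32531 genes counted. The study sequenced RNA bound to tagged ribosomes from the dorsal striatum (4 libraries) and the nucleus accumbens (4 libraries) of untreated mice aged over 20 months. The mice carried the transgene Drd1-EGFP/Rpl10a (CP73), in which the Drd1 promoter (dopamine D1 receptor) drives L10a, a ribosomal protein, joined to enhanced green fluorescent protein. Tagged polysomes were pulled down with antibodies against the fluorescent protein (translating ribosome affinity purification, TRAP), so that transcripts of D1 receptor-expressing cells, mostly direct-pathway projection neurons, are meant to be enriched. Both groups share transgene, age and purification and by label differ in region. Nothing in the labels says that each library is a separate animal, and the p-values therefore rest on the spread among libraries, which may be technical. No unpurified input was analysed here.

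In a nerve terminal, vesicles filled with transmitter are tethered by synapsins and Rab3 proteins and brought to the active zone by scaffolds such as bassoon, piccolo and RIM. The vesicle SNARE synaptobrevin (Vamp2) pairs with SNAP-25 and syntaxin on the plasma membrane, complexins clamp the pair, and calcium binding to synaptotagmin triggers fusion. NSF and its SNAP partners then pull the SNAREs apart for another round. The projection neurons of the striatum use this machinery in axon terminals in the midbrain and pallidum, while the RNA measured here came from the dissected striatum, where their cell bodies lie.

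Of the 38 genes, all passed the filter on low counts and 6 differed between regions. Rph3a, Snap25, Cplx2 and Syt6 were higher in dorsal striatum, by 2.84-fold, 1.43-fold, 1.48-fold and 1.42-fold (ratios of mean CPM, each count as a rate over its TMM-scaled library size), and Syt5 and Rab3b were higher in accumbens, by 1.72-fold and 1.63-fold. The call required an adjusted p (Benjamini-Hochberg, over all 12467 genes tested) below 0.05 in the quasi-likelihood test of edgeR, and every log2 fold change is accumbens over dorsal striatum. The calls among all tested genes came to 3.72%, split into 1.6% in the accumbens direction and 2.12% in the dorsal direction. In the same test, an unadjusted p under 0.05 was reached by 1850 of the 12467 genes and by 11 of the 38. Of the 2124 tested genes averaging at least 100 CPM, a level that 30 of the 38 reached, 10.5% were called. Of those calls, 59 were higher in accumbens and 163 in dorsal striatum. The regions' libraries did not overlap for 10 of the 38 genes, 5 in each direction, against 9.69% of all tested genes (4.51% with accumbens higher, 5.18% with dorsal higher) and 18.9% of those at 100 CPM or more. At that level, 117 genes had no overlap with accumbens higher and 284 with dorsal higher. The log2 fold changes of the 38 had a median of -0.01, beside 0.02 over all tested genes, with 19 above and 19 below 0. Of the 38, 24 (63.2%) lay within 0.3 of 0, beside 50.8% of all tested genes. Over the genes at 100 CPM or more, the median was -0.06 and 69.9% lay within 0.3 of 0. In such bulk samples, fewer cells of a type and less RNA per cell cannot be told apart.

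The counts assigned to genes ran from 7466970 to 10363145 in dorsal libraries and from 10831937 to 12639641 in accumbens libraries, so every accumbens library was larger. Reads without a gene also separated the regions, at 27.1% to 33.8% of counted reads in dorsal and 35.5% to 40.6% in accumbens libraries, and Rn45s, the ribosomal RNA precursor, took 1.91% to 5.84% and 5.66% to 6.71% of gene counts. With every library thinned to 7466970 counts, 2 of the genes described here were called higher in accumbens and 4 in dorsal striatum. These numbers were the same without thinning. The part of reads without a gene and of Rn45s in the results was not tested. By rank correlation, accumbens 2 and dorsal striatum 3 were least like the other libraries (medians of 0.927 and 0.935), and without both of them Rph3a, Cplx2 and Snap25 were still called while Syt5 (log2 fold change 0.58, adjusted p = 0.0979), Rab3b (0.64, adjusted p = 0.103) and Syt6 (-0.47, adjusted p = 0.135) kept their direction but were not. Drd1 itself averaged 604.8 ± 60.9 CPM over dorsal and 435 ± 86.5 CPM over accumbens libraries (SD, n = 4 each), with a log2 difference of -0.47 ± 0.14 SE (edgeR adjusted p = 0.0750), and Rpl10a averaged 194 ± 35.3 and 206 ± 25.2 CPM (log2 difference 0.09, adjusted p = 0.868). These transcripts check the purification only in part, since the tagged Rpl10a and the mouse's own give the same symbol. Indirect-pathway neurons express the D2 rather than the D1 receptor, and their summed markers lay between 223 and 333 CPM in dorsal libraries and between 628 and 908 CPM in accumbens libraries, and 3 of 6 were called higher in accumbens. Astrocyte markers summed to 190.5 to 359.7 and 245 to 683 CPM (1 of 8 called), and those of cortical and thalamic excitatory neurons to 4.43 to 109 and 23.8 to 100.1 CPM. Oligodendrocyte markers summed to 121 to 190.4 and 127 to 320.5 CPM, GABA interneuron markers to 35.6 to 133 and 70.3 to 159.8 CPM, and endothelial and mural markers to 5.09 to 73.7 and 7.68 to 145 CPM. The 6 direct-pathway markers summed to far more, 2049 to 2261 and 1697 to 1960.0 CPM, with 1 called higher in accumbens and 2 in dorsal striatum. Microglial and cholinergic markers stayed at 13.2 CPM or less in sum, with C1qa, Slc18a3 and Gbx2 at 0. With the level of glial markers as a covariate, Rph3a, Cplx2 and Snap25 remained called, and Syt5 (log2 fold change 0.65, adjusted p = 0.130), Rab3b (0.66, adjusted p = 0.171) and Syt6 (-0.43, adjusted p = 0.237) kept their direction without passing the threshold. Cortical and thalamic sums were higher in dorsal 1 and 2 than in dorsal 3 and 4, and so were Syt5 and Rab3b. Within accumbens, the sum and both genes were lowest in accumbens 4. Between regions, dorsal 1 and 2 had larger sums than accumbens 4 (63.4 and 109 against 23.8 CPM) but less Syt5 and Rab3b. The part of indirect-pathway RNA, or of cortical and thalamic RNA, in any of these differences was not tested.

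**Figure D1:**
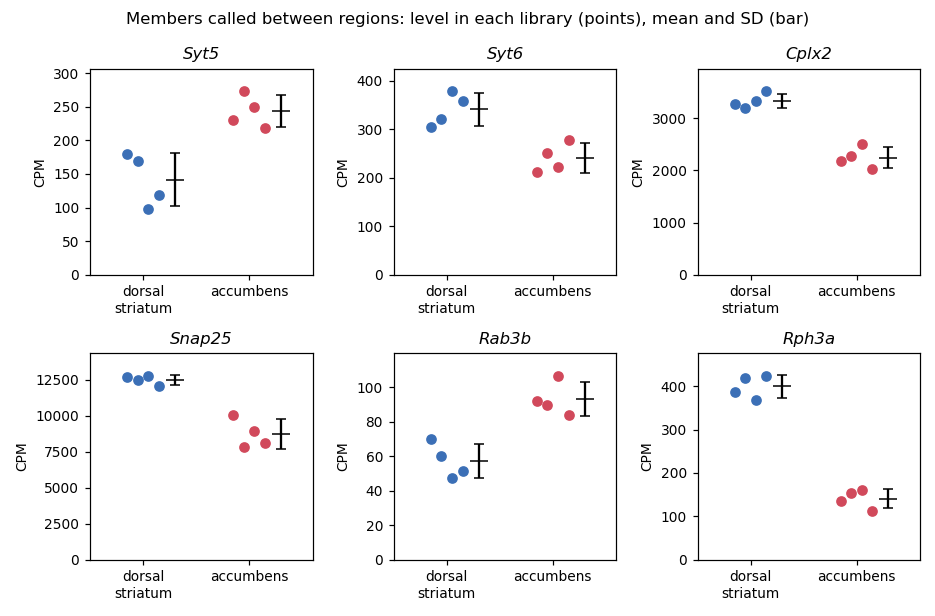
Level of the 6 called genes in every library, in CPM from 0 (points: single libraries, 4 per region; bar: mean and SD). Each gene's 4 dorsal values lie apart from its 4 accumbens values, most widely for Rph3a, at 369 to 424 against 112 to 162 CPM.

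The upstream sequences of 4 of the 6 called genes are shown so that the starts of genes that differ in opposite directions can be set side by side. Each is the 250 bases before a RefSeq transcription start (GRCm38.p6), for Rph3a and Syt6 the one of 3 listed starts nearest to the GENCODE gene start, 5' to 3' on the gene's strand, with GGGCGG (the GC box, bound by Sp1-family factors) and CACGTG (an E-box) in capitals, searched on both strands. Rph3a lies at chr5:121010093-121010342 on the minus strand, Cplx2 at chr13:54302306-54302555, Syt6 at chr3:103574995-103575244 and Rab3b at chr4:108878820-108879069, all on the plus strand.
Rph3a: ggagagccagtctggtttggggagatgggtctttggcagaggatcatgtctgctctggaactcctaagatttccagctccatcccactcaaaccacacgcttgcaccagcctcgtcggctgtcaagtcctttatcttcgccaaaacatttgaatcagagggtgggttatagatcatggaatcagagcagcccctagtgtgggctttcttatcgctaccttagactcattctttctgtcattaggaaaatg
Cplx2: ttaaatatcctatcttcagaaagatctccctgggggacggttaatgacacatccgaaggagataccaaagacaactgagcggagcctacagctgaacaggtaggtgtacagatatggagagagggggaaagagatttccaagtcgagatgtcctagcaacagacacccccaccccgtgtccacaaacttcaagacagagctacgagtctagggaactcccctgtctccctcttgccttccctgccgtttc
Syt6: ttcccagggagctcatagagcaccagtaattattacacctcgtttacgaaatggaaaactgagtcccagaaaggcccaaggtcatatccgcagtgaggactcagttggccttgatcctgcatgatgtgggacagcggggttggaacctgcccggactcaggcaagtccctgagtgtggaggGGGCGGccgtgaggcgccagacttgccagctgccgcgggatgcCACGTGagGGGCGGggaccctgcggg
Rab3b: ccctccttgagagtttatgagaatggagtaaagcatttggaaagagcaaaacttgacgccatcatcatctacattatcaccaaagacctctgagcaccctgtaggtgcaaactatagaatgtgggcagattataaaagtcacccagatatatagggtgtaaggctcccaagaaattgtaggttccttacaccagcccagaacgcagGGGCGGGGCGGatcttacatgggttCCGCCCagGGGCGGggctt
Rab3b, higher in accumbens, holds 4 GC boxes, and Syt6, higher in dorsal striatum, holds 2 and an E-box. Rph3a and Cplx2, also higher in dorsal striatum, hold neither motif in this window, which says only that these letters are not there. The window of Cplx2 belongs to a RefSeq start 68793 bases from the gene's start in GENCODE M21, an annotation of the same genome. Among all 32851 windows of this length, 32.7% hold GGGCGG and 6.02% hold CACGTG. Of the 28 members with a window, 21 hold the GC box and 3 the E-box, namely Syt6, Nsf and Napa, and 1, Syn1, holds the cyclic AMP response element TGACGTCA, found in 1.55% of windows. A REST element was also searched and was in 0 of the 28 and 0.0213% of windows. The members' windows, 1 per gene, ran from 47.6% to 78.4% in GC content. Over all windows, which take every listed start, the median was 52.4%. The part of GC content in these shares was not tested. Syt5 and Snap25 are not among the windows.

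Rab3 proteins are small GTPases on the vesicle membrane, and rabphilin (Rph3a) binds them in the GTP form and has C2 domains that bind calcium. Rph3a (chromosome 5, 120940499 to 121010092) had 387, 419, 369 and 424 CPM in dorsal libraries 1 to 4 and 135, 154, 162 and 112 CPM in accumbens libraries 1 to 4. The lowest dorsal library was more than 2 times the highest accumbens library, so the regions did not come near to overlapping. The means were 399.7 ± 26.5 and 141 ± 21.9 CPM (SD, n = 4 each), and the log2 difference was -1.51 ± 0.14 SE (95% interval -1.80 to -1.21, edgeR adjusted p = 6.69e-06). Of the Rab3 genes whose products it binds, Rab3a, the best studied at central synapses, had 270.5 ± 37.2 and 263 ± 37.2 CPM (log2 fold change -0.04, 95% interval -0.34 to 0.26). Rab3c had 984, 959, 1099 and 983 CPM in dorsal and 834, 1037, 957 and 986 CPM in accumbens libraries (log2 fold change -0.08, 95% interval -0.31 to 0.15). The ratio of Rph3a to Rab3a counts went from 1.49 ± 0.171 in dorsal striatum to 0.536 ± 0.0648 in accumbens, with no overlap.

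Rab3b, another paralogue, was the least abundant of the 3 per exon length and was higher in accumbens. It had 69.9, 60.3, 47.6 and 51.1 CPM in dorsal libraries and 92.05, 89.4, 106.7 and 84.1 CPM in accumbens libraries, with the highest dorsal value below the lowest accumbens value. The means were 57.2 ± 10.01 and 93.1 ± 9.67 CPM (log2 difference 0.70 ± 0.18 SE, 95% interval 0.33 to 1.07, edgeR adjusted p = 0.0318). Rab3b (chromosome 4, 108879063 to 108943324) overlaps 8030443G20Rik on the opposite strand, and the counting strand was not given, so reads of the pair may be mixed. Its share of the 3 Rab3 genes, per exon length, was 7.33% ± 1.07 in dorsal striatum and 11.9% ± 1.31 in accumbens, without overlap, while the shares of Rab3a and Rab3c overlapped. The call for Rab3b was lost without any of dorsal 2, 3 or 4 or accumbens 1 or 3, with adjusted p up to 0.105.

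**Figure D2:**
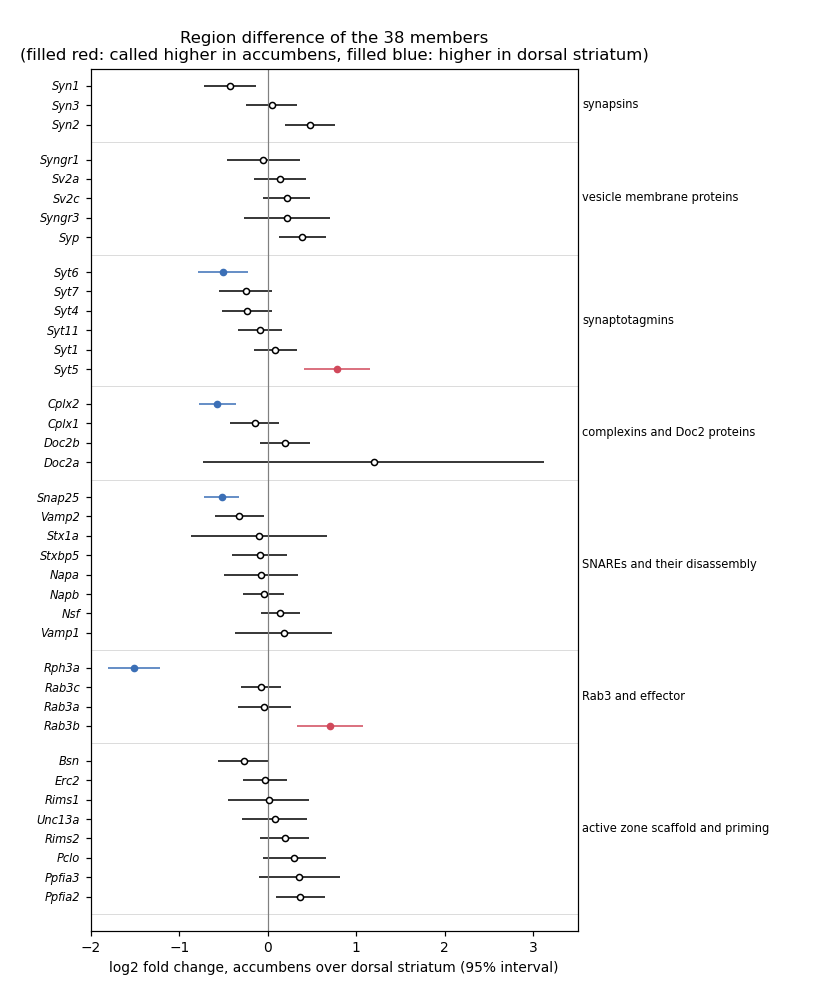
Log2 fold change, accumbens over dorsal striatum, of all 38 genes grouped by role (points) with 95% intervals (lines), filled where called (red: higher in accumbens, blue: higher in dorsal striatum). The interval of Rph3a lies from -1.80 to -1.21, apart from that of every other gene, and Doc2a has the widest, from -0.73 to 3.12.

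Synapsins coat vesicles and hold them in the reserve pool. None of the 3 was called (edgeR; 2 at an unadjusted p under 0.05), while Syn2 was called by DESeq2 and limma-voom, with no filter on low counts (adjusted p = 0.0458), with the glial covariate (0.0383) and without dorsal 4 (0.0158). Syn1 had 763, 913, 748 and 1138 CPM in dorsal and 554, 696, 721 and 683 CPM in accumbens libraries, with every dorsal library above every accumbens library (log2 fold change -0.42 ± 0.14 SE, edgeR adjusted p = 0.124). Syn2 had 249, 238, 229.9 and 320.4 CPM in dorsal and 333, 386, 379.8 and 342 CPM in accumbens libraries, again without overlap but the other way round (log2 fold change 0.47 ± 0.13 SE, edgeR adjusted p = 0.0608, DESeq2 0.0132). Syn3 stood at 269.7 ± 11.8 and 278 ± 46.2 CPM (log2 fold change 0.04), and its exons overlap those of Timp3. The Syn1 to Syn2 count ratio was 3.43 ± 0.342 in dorsal striatum and 1.84 ± 0.142 in accumbens. Per exon length, Syn1 made up 81.9% ± 1.72 of synapsin in dorsal and 73.1% ± 1.14 in accumbens libraries, and Syn2 11.3% ± 0.92 and 18.7% ± 1.24, both without overlap.

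**Figure D3:**
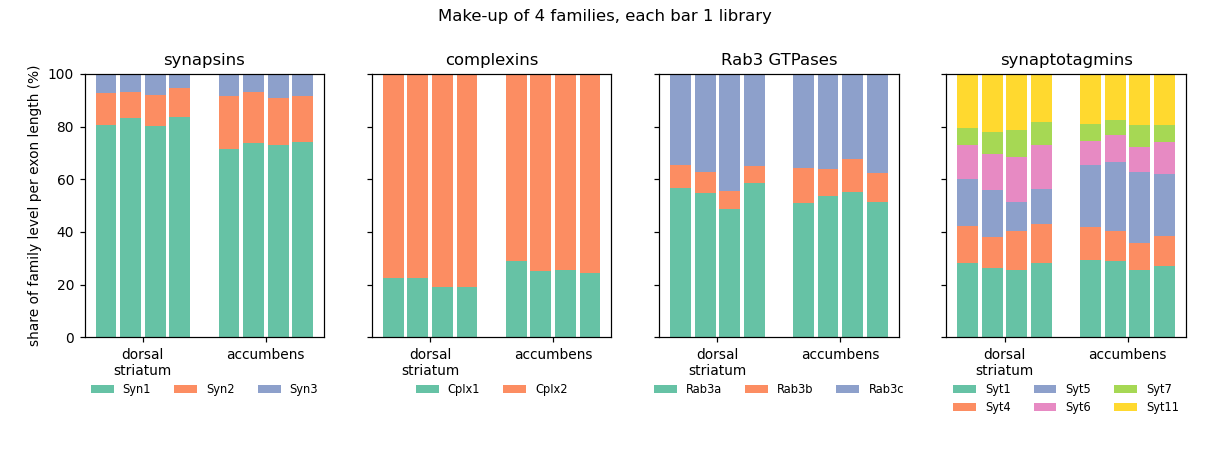
Share of each paralogue in the summed level of its family per exon length, in percent, for synapsins, complexins, Rab3 proteins and synaptotagmins, each bar being 1 library. The Syn2 segment fills 10.1% to 12.3% of the dorsal bars and 17.4% to 20.2% of the accumbens bars.

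Vesicle membrane proteins line the vesicle itself. None of the 5 was called by edgeR or limma-voom (1 at an unadjusted p under 0.05), and DESeq2 called Syp. Syp, encoding synaptophysin, had 1137, 1007, 909 and 869 CPM in dorsal and 1472, 1212, 1379.6 and 1073 CPM in accumbens libraries, and its regions overlapped (log2 fold change 0.39 ± 0.12 SE, edgeR adjusted p = 0.107, DESeq2 0.0481). Sv2c, the paralogue of the SV2 family that is rich in basal ganglia, had 327 ± 39.1 and 379 ± 35.0 CPM (0.21 ± 0.13 SE, adjusted p = 0.480). Sv2a, Syngr1 and Syngr3 had log2 fold changes of 0.14, -0.05 and 0.21, with overlapping regions. Per exon length, Sv2c made up 52.1% ± 4.48 of the SV2 pair in dorsal and 53.5% ± 2.07 in accumbens libraries, and the regions overlapped.

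Synaptotagmins are the C2-domain proteins of the vesicle, and several of them sense calcium. Syt5 had 179, 169, 98.2 and 119 CPM in dorsal and 231, 274, 250.2 and 219 CPM in accumbens libraries, so the highest dorsal library was below the lowest accumbens library. The means of 141 ± 39.1 and 243 ± 24.1 CPM put the log2 difference at 0.78 ± 0.18 SE (95% interval 0.41 to 1.15, edgeR adjusted p = 0.0156), which missed the threshold without dorsal 3 (adjusted p = 0.0521) or dorsal 4 (0.0608). Syt6 had 306, 321, 380.0 and 359 CPM in dorsal and 211, 252, 222 and 278 CPM in accumbens libraries, again without overlap. Its means were 341 ± 34.1 and 241 ± 30.2 CPM (log2 difference -0.50 ± 0.13 SE, 95% interval -0.78 to -0.22, edgeR adjusted p = 0.0405). Exons of Syt6 share 505 bases with Atg4a-ps on the opposite strand, so reads of that pair may be mixed as well. That call was kept only when accumbens 4 was the library left out, and leaving out any other gave adjusted p from 0.0511 to 0.139.

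The main calcium sensor of fast release, Syt1, had 983, 882, 813 and 866 CPM in dorsal and 1003, 1041, 831 and 886 CPM in accumbens libraries (log2 fold change 0.09 ± 0.11 SE, adjusted p = 0.808). Syt11, which lacks calcium binding, stood at 421 ± 47.3 and 396 ± 4.18 CPM (-0.09 ± 0.12 SE, adjusted p = 0.815). Syt4 and Syt7 had log2 fold changes of -0.24 and -0.25. As a share of the 6 synaptotagmins per exon length, Syt5 stood at 15.1% ± 3.53 in dorsal and 25.2% ± 1.78 in accumbens libraries and Syt6 at 15.03% ± 2.18 and 10.2% ± 1.42, both without overlap, while the other 4 shares overlapped between regions.

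Complexins bind the assembled SNARE bundle and gate its last step. Cplx2 (chromosome 13, 54371349 to 54383917) had 3272, 3198, 3321 and 3524 CPM in dorsal and 2169, 2264, 2505 and 2031 CPM in accumbens libraries. Every dorsal library was above every accumbens library, with means of 3329 ± 139.6 and 2242 ± 199.5 CPM (log2 fold change -0.57 ± 0.10 SE, 95% interval -0.78 to -0.36, edgeR adjusted p = 0.00195). Cplx1 had 425, 413, 349.7 and 369 CPM in dorsal and 395, 339, 380.5 and 291 CPM in accumbens libraries (-0.15 ± 0.13 SE, 95% interval -0.42 to 0.13, adjusted p = 0.674). The Cplx2 to Cplx1 count ratio was 8.62 ± 1.04 in dorsal and 6.44 ± 0.652 in accumbens libraries, without overlap. Other count ratios did overlap between regions. Cplx2 to Snap25 stood at 0.266 ± 0.0175 in dorsal and 0.259 ± 0.0337 in accumbens libraries. Snap25 to Vamp2 stood at 6.30 ± 1.29 and 5.36 ± 0.954, and Syt6 to Syt1 at 0.389 ± 0.0670 and 0.258 ± 0.0433. Those of Rab3b to Rab3a, Rph3a to Rab3c, Syt5 to Syt1 and Rph3a to Doc2b did not overlap. Each of these pairs, like Cplx2 to Cplx1 and Rph3a to Rab3a, holds a called gene whose own libraries did not overlap. These ratios are therefore no separate evidence, and no ratio was tested. Doc2 proteins are calcium sensors linked to spontaneous release. Doc2b had 222 ± 18.5 and 254 ± 34.1 CPM (log2 fold change 0.19), and Doc2a, the least abundant gene of the set, had 0.138 to 3.55 and 1.11 to 7.98 CPM. Over unscaled gene totals, 3 counts correspond to 0.237 to 0.402 CPM. Exons of Doc2a share 1103 bases with Ino80e on the opposite strand, so reads of these genes may be mixed.

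SNAREs carry out fusion itself. Snap25, the plasma membrane SNARE, had 12705, 12489, 12802 and 12042 CPM in dorsal and 10078, 7799.6, 8941 and 8089.9 CPM in accumbens libraries. The lowest dorsal value was above the highest accumbens value, at means of 12509.6 ± 338 and 8727 ± 1023 CPM (log2 fold change -0.52 ± 0.09 SE, 95% interval -0.72 to -0.32, edgeR adjusted p = 0.00269). Snap25 (chromosome 2, 136713453 to 136782428) made up 1.23% ± 0.0335 of all gene counts in dorsal and 0.886% ± 0.114 in accumbens libraries. All 38 genes together took 2.91% ± 0.0359 and 2.49% ± 0.121, and without Snap25 1.68% ± 0.0577 and 1.599% ± 0.0597.

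Vamp2, the vesicle partner of Snap25, had 1854, 1669, 2004 and 2681 CPM in dorsal and 1507, 1761, 1761 and 1548 CPM in accumbens libraries, which overlap (log2 fold change -0.32 ± 0.13 SE, edgeR adjusted p = 0.247). Nsf, the ATPase that unzips spent SNARE bundles, had 869.8 ± 63.9 and 961 ± 29.5 CPM, without overlap but with a log2 difference of 0.14 ± 0.10 SE (adjusted p = 0.593). Its adaptors Napa and Napb had log2 fold changes of -0.08 and -0.05, Stxbp5 (tomosyn) -0.09, Vamp1 0.18 and Stx1a -0.09. Snap25 thus differed by a larger log2 fold change than each of the other 7 genes of this role, though differences between genes were not tested.

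Active zone scaffolds and priming factors hold vesicles and calcium channels in register. None of the 8 was called by edgeR, DESeq2 or limma-voom (1 at an unadjusted p under 0.05 in edgeR). Pclo, encoding piccolo, had 591, 750.5, 632 and 636 CPM in dorsal and 734, 915, 1043 and 523 CPM in accumbens libraries, overlapping (log2 fold change 0.30 ± 0.17 SE, adjusted p = 0.436). Erc2, a binder of RIM, had 472 ± 40.0 and 462 ± 34.1 CPM (-0.03 ± 0.12 SE, 95% interval -0.28 to 0.21). Ppfia2, encoding liprin-alpha-2, was the 1 scaffold gene without overlap, at 146, 132, 163 and 149 CPM in dorsal and 190.2, 186, 204 and 182 CPM in accumbens libraries (0.37 ± 0.13 SE, adjusted p = 0.162). Its exons share up to 2436 bases with C230021G24Rik and Acss3 on the opposite strand, so reads of these genes may be mixed. The rest, Unc13a, Rims1, Rims2, Bsn and Ppfia3, had log2 fold changes between -0.27 and 0.36. Their intervals still reach past 0.3 in 1 direction or the other, so differences of that size were not excluded by these data.

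Per kilobase of exon, Snap25 led the set in both regions, at 1842 ± 49.8 and 1285 ± 151 CPM per kilobase in dorsal and accumbens libraries. Cplx2 came next at 675 ± 28.3 and 455 ± 40.5, then Vamp2 at 539 ± 116 and 432 ± 35.6, Syn1 at 270 ± 54.9 and 201 ± 22.7 and Syp at 188 ± 22.9 and 246 ± 34.0. In accumbens, Cplx2 and Vamp2 lay within 1 SD of each other, whereas in dorsal striatum Cplx2 and Vamp2 were apart by more than 1 SD of either. Syn1 and Syp, in turn, exchanged places between regions in their means. At the low end, Stx1a had 5.89 and 5.51, Vamp1 1.93 and 2.18, and Doc2a 0.610 and 1.41 CPM per kilobase.

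**Figure D4:**
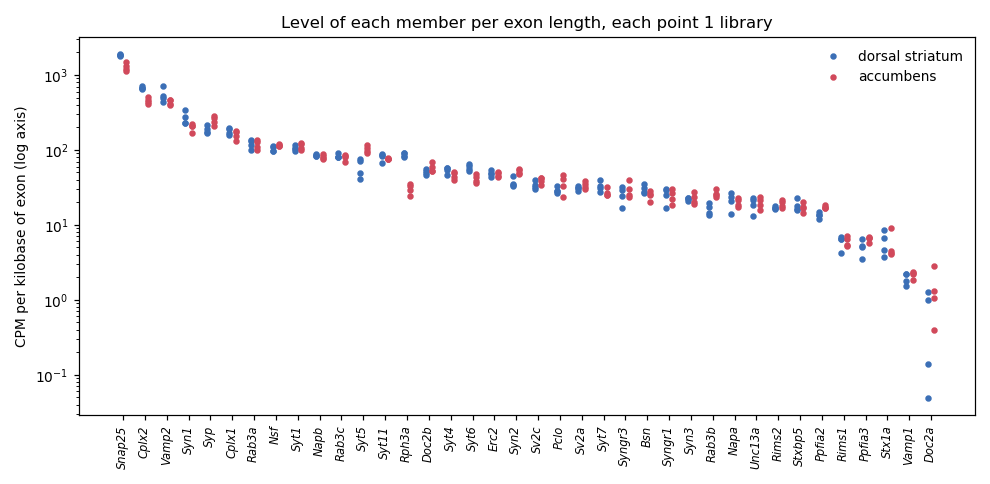
Level of the 38 genes in CPM per kilobase of exon (log axis), in order of the mean over all 8 libraries, each point being 1 library (blue: dorsal striatum, red: accumbens). Snap25 stands highest and Doc2a lowest, and the dorsal points of Rph3a lie above its accumbens points, at means of 86.2 and 30.3.

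A wider list of 82 presynaptic genes, among them further synaptotagmins, Rab effectors, scaffold, endocytosis and transmitter loading genes, was set beside the 38, and its log2 fold changes had a median of 0.04. In edgeR, 76 of them were tested and 2 were called, beside 3.72% of all tested genes. Both were higher in dorsal striatum, and 10 in that direction had an unadjusted p under 0.05. In the accumbens direction 0 were called, 8 had an unadjusted p under 0.05, and 1 passed in DESeq2 and 0 in limma-voom. Sytl5, encoding a Rab27-binding protein of the synaptotagmin-like family, had 79.8, 93.5, 115 and 106 CPM in dorsal and 49.97, 53.1, 42.2 and 51.7 CPM in accumbens libraries. Its regions did not overlap, and the log2 difference was -1.0 ± 0.18 SE (edgeR adjusted p = 0.00227). Syt9, a fast calcium sensor related to Syt1, had 24.7, 16.0, 28.1 and 37.5 CPM in dorsal and 14.7, 8.44, 11.9 and 7.12 CPM in accumbens libraries, also without overlap (-1.34 ± 0.33 SE, adjusted p = 0.0292). The call for Sytl5 held in all 19 alternatives, and that for Syt9 was lost with limma-voom (adjusted p = 0.107), with the glial covariate (0.326), without accumbens 2 and dorsal 3 together (0.118) and with 6 of 8 libraries left out singly. Syt2, another fast calcium sensor, picked after its values were seen, had 45.0 ± 18.2 and 17.4 ± 10.4 CPM, with overlapping regions (-1.37 ± 0.39 SE, edgeR adjusted p = 0.0608), and was called by DESeq2 and limma-voom, with no filter and with the glial covariate. Unc13b, picked in the same way, lay in the other direction at 8.57 ± 3.25 and 21.4 ± 8.64 CPM, with overlapping regions. Its log2 difference was 1.31 ± 0.38 SE (edgeR adjusted p = 0.0649), and it was called by DESeq2 and with no filter.

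Among the 20 endocytosis genes tested, 0 were called by edgeR, DESeq2 or limma-voom (4 at an unadjusted p under 0.05 in edgeR), and Synj1, the phosphatase that uncoats vesicles, stood at 1035 ± 164 and 1078 ± 109 CPM. Slc32a1, the vesicular GABA transporter of these inhibitory neurons, had 149 ± 23.4 and 175 ± 39.8 CPM (0.23 ± 0.17 SE, adjusted p = 0.603). Slc17a7, the vesicular glutamate transporter of cortical neurons, had 20.6, 39.7, 2.35 and 0.985 CPM in dorsal and 59.8, 36.4, 54.4 and 14.2 CPM in accumbens libraries (1.37 ± 0.71 SE, adjusted p = 0.394). Scamp1, a secretory carrier membrane protein, had 628 ± 50.4 and 483 ± 36.2 CPM without overlap (-0.38 ± 0.11 SE, edgeR adjusted p = 0.0827, DESeq2 0.0309). Cadps, Madd and Unc13c, like Scamp1 the most abundant of their groups, had log2 fold changes of 0.39, -0.02 and 0.10, and their regions overlapped.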

How the data were processed

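Ribosome-bound RNA of 8 immunopurified samples, 4 per region, was grouped by the regions in the sample titles. The authors deposited whole-number read counts, not normalized, for 32531 gene symbols per library, as the file contents show. Alignment to mm10 used STAR 2.0.0e and counting used HTSeq, per the submitters' processing notes. The annotation and the strand setting are not given in the sources used here. Exons of 17 of 38 members share bases with a neighbouring gene, in 16 cases on the other strand, and those counts may be mixed. Reads without a gene (27.1% to 33.8% in dorsal and 35.5% to 40.6% in accumbens libraries) were left out. A count of 3 equals 0.237 to 0.402 CPM when taken over the unscaled gene totals.

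Regions were compared by the quasi-likelihood test of edgeR 4.0.16 (R 4.3.3, TMM, filterByExpr with minimum count 10, 12467 genes, Benjamini-Hochberg adjustment over all of them). The threshold was 0.05. CPM uses TMM-scaled library sizes, and SE comes from the fold change and its test statistic. The biological coefficient of variation was 0.415, and every pair of libraries differed by more than sampling noise. Exon lengths and positions are from GENCODE M21 (GRCm38, the coordinates of mm10), and the promoter windows from RefSeq GRCm38.p6, matched by symbol for 28 of 38 members. The methods were tested on simulated data. Of 67 simulated 1.5-fold changes, 7.46% were called, and 44.4% of the 9 at 100 CPM or more. At 2-fold the shares were 42.6% and 84.6%. Of all simulated calls, 5.81% were false. Alternatives were RLE and upper-quartile scaling, no filter, a stricter filter (1 CPM in 4 libraries), DESeq2 1.42.0, limma-voom (limma 3.58.1) with quality weights, a replicate block, a glial marker covariate, thinning to 7466970 counts, removal of GC and length trends, and left-out libraries.

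Values in every library were given for called members, the 2 most abundant members of each role, called genes of the wider list and Slc17a7. Exceptions are Sv2c, Syt11 and Erc2, which like Slc32a1 are given by mean and SD. The most abundant wider-list gene of each group is given by levels or by fold change (1 of these is not reported here). Other members are given by fold change, and Syn3, Rab3a, Doc2a, Doc2b, Nsf, Ppfia2, Syt2 and Unc13b were added after their values were seen. The members and the lists were chosen with earlier results of these data known.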

Additional observations from a re-analysis of the deposited data

Results flagged for a closer look

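Of 98 sets of 4 libraries examined, 3 held a library that stood apart from the other 3 by more than Dixon's 95% critical value, taking the gap to the nearest library as a share of the range. Chance gives about 1 in 20 such sets. Syt11 in accumbens 1 had a share of 0.958, at 403 CPM against 394.2 to 394.5 CPM, a gap of little size because the other 3 libraries nearly coincide. Stx1a in accumbens 3 had 0.927, at 24.6 CPM against 11.03 to 12.03 CPM, and Rims1 in dorsal striatum 3 had 0.885, at 31.1 CPM against 47.8 to 49.96 CPM. None of these 3 genes was called between regions.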

How the results depend on the processing

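Of the 6 called members, Rph3a, Cplx2 and Snap25 were called under all 19 alternatives, Syt5 under 15, Rab3b under 11 and Syt6 under 10. Members called higher in accumbens numbered 2, and 4 with DESeq2, 1 with the replicate block, 1 with the glial covariate (Syn2, with Syt5 and Rab3b lost), 0 without accumbens 2 and dorsal 3 together and 0 to 2 with 1 library left out. Members called higher in dorsal striatum numbered 4, and 3 to 4 with 1 library left out. Wider-list genes called higher in accumbens numbered 0, and 2 with no filter, 1 with DESeq2, 1 with the glial covariate and 0 to 1 with 1 library left out. Those higher in dorsal striatum numbered 2, and 4 with DESeq2, 1 without accumbens 2 and dorsal 3 and 1 to 3 with 1 library left out. Over all genes, 200 higher in accumbens became 350 with no filter, 375 with DESeq2 and 111 with the glial covariate, where 264 higher in dorsal striatum became 151. The causes were not tested. Where libraries were left out, their smaller number and the values of the removed ones cannot be told apart. The median log2 fold change of all tested genes stayed under 0.1 in size under every alternative.

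Some uncalled genes changed sign. Among them, Syngr3 and Slc32a1 had log2 fold changes of 0.21 and 0.23 in the main fit, and the others lay nearer 0. With the glial covariate, the log2 fold changes were 0.0866 for Stxbp5, 0.0626 for Rab3a, -0.0557 for Unc13a, -0.0729 for Rims1 and 0.0491 for Erc2. Without accumbens 2 and dorsal 3 they were -0.118 for Syngr3, -0.00585 for Syt1, 0.0522 for Stx1a, -0.0584 for Rims1, 0.0963 for Madd and -0.0345 for Slc32a1. With limma-voom the value was -0.0578 for Unc13a, and with GC and length trends removed -0.0485 for Unc13a and -0.0276 for Rims1. With 1 library left out, values ran from -0.0615 to 0.116 for Syn3, -0.204 to 0.0647 for Syngr1, -0.457 to 0.135 for Stx1a, -0.182 to 0.0352 for Stxbp5, -0.234 to 0.0506 for Napa, -0.121 to 0.0427 for Rab3a, -0.0662 to 0.179 for Unc13a, -0.124 to 0.076 for Rims1, -0.0783 to 0.0185 for Erc2, -0.166 to 0.0855 for Madd and -0.0245 to 0.161 for Synj1.

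The replicate number is not said to mark an animal, so the numbers were not read as pairs. Deviations from the region mean correlated at 0.01, -0.08, -0.04 and -0.04 between same-numbered libraries. Between libraries of different number, the correlations ran from -0.13 to 0.11. With the replicate block, 194 genes were called higher in accumbens and 238 in dorsal striatum, Rab3b lost its call (log2 fold change 0.71, adjusted p = 0.0503), and Madd stood at 0.00695. SEs of the log2 fold change ran from 0.09 for Snap25 to 0.91 for Doc2a, with a median of 0.14 over the 38 genes, beside 0.32 over all tested genes. Doc2a had 1 to 30 counts in dorsal and 13 to 101 in accumbens libraries. With libraries thinned to equal depth, 207 and 268 genes were called.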
